A study of Mus musculus with 12 samples.

Results

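Galectins and the regulators of the transcription factor TFEB form a group of genes tied to stress of the endosome and the lysosome. The group held 9 genes, namely the galectins Lgals1, Lgals3, Lgals8 and Lgals9, the transcription factors Tfeb, Tfe3 and Mitf, the lysosomal channel Mcoln1 and the folliculin gene Flcn. They were chosen by gene symbol, from what they are known to do, with earlier results of these data known. They are 9 of the 55487 genes in the count table. All 9 passed the filter on low counts and were tested.

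The study treated mouse mesenchymal stromal cells (MSCs) with A1, a variant of the Accum molecule in which cholic acid, a bile acid, is linked to the nuclear localization signal of hnRNPA1. Accum was first made to carry drugs into cells by disturbing the endosomal membrane, and A1 was picked from a library of its variants in a screen for antigen cross-presentation by MSCs. RNA was measured in 3 groups of 4 samples: untreated MSCs (labelled Negative and called control here), MSCs given 50 μM A1 for 6 h (A1), and MSCs given 50 μM A1 with 1 mg/ml ovalbumin for 6 h (A1-OVA). There was no group with ovalbumin alone. All 3 groups were primary wild-type MSCs of strain C57BL/6, grown out from the bone marrow of female mice by adherence and expanded in culture. The protocol in the labels also names insulin in the medium of the A1-OVA group, without a readable amount. How many mice or cultures the 4 samples of a group came from is not stated, so that the p-values measure the spread between these samples, which may be technical.

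Galectins are lectins that occur in the cytosol, and some are also secreted. When the membrane of an endosome or lysosome tears, sugars of its inner face become exposed, and galectins bind them and mark the organelle for repair or for autophagy. TFEB, TFE3 and MITF are related transcription factors that bind short E-box motifs, the CLEAR elements, near lysosomal and autophagy genes. At the surface of a healthy lysosome the kinase mTORC1, brought there by Rag GTPases, phosphorylates them and keeps them in the cytosol. Folliculin acts on the Rag GTPases in this step, and calcium leaving the lysosome through the channel encoded by Mcoln1 activates calcineurin, which removes the phosphates. This control acts on the proteins and on their place in the cell, which RNA counts do not measure.

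Among the members with a listed promoter, the core of a CLEAR element was found for Mcoln1. RefSeq promoter windows, from 250 bases before to 50 bases after a start site, were listed for 8 of the 9 genes, all but Lgals1 (GRCm38.p6, 13 windows). The core CACGTG was found in 1 of these windows, that of Mcoln1 at chr8:3500269-3500568 on the + strand. The window is shown because the channel gene was the member that differed most in size between the treatments. Capitals mark the matches, the first beginning 73 and the second 46 bases before the RefSeq start site. The GENCODE model of the gene begins at position 3500457, inside this window.

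Mcoln1 promoter: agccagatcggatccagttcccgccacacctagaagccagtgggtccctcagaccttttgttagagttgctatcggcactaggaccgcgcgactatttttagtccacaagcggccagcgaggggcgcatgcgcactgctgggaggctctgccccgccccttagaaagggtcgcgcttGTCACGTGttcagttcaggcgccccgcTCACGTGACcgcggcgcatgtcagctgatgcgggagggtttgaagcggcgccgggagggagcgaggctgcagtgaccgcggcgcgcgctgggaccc

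On either strand, CACGTG was present in 7.15% of all 32851 promoter windows and the longer form GTCACGTG in 2.25%. Among the genes tested here that had a window, the shares were 11.9% and 4.96% of 8954. In a list of known CLEAR targets they were 48.4% and 35.5% of 31 genes. For the members, CACGTG was found for 1 of 8 genes (12.5%), which lay near the share of the tested genes. A match is a description of the letters and not of a bound site, and a window with GTCACGTG also holds CACGTG.

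Each sample had between 13702348 and 16881995 counts, and the A1 samples had the lowest totals, between 13702348 and 14347870. Values per sample are given as CPM, the counts scaled to the TMM-adjusted depth of the sample, and changes as log2 fold changes with their standard error (SE). A gene was called changed at an adjusted p-value under 0.05 in edgeR's quasi-likelihood test, with Benjamini-Hochberg adjustment over the 11314 tested protein-coding genes. The labelled cell type was checked against 11 MSC markers, whose summed level was 9616 to 10540 CPM in the control, 9929 to 10557 CPM in the A1 and 9996 to 10325 CPM in the A1-OVA samples. Most of this sum was Col1a1, Col1a2 and Itgb1, with means of 3335, 4266 and 1451 CPM in the control, and single markers moved in both directions. Of the 10 tested markers, 2 rose and 4 fell with A1, and 2 rose and 5 fell with A1-OVA. With A1, Cd44 (1.39) and Itgb1 (0.62) rose, and Pdgfra (-0.99), Vcam1 (-0.95), Ly6a (-0.59) and Col1a2 (-0.23) fell on the log2 scale (adjusted p between 2.37e-17 and 3.32e-05, edgeR). Thy1 and Nt5e, markers often used for MSCs, were nearly absent, with at most 17 and 14 counts in any sample. The summed level of 11 markers of macrophages, cells rich in galectin-3 and lysosomes, was 9.78 to 10.4 CPM in the control, 14.2 to 16.2 CPM in the A1 and 10.9 to 13.7 CPM in the A1-OVA samples. Of these 11 markers, Cd14 (7.59 CPM in the control, 11.3 with A1) and Mrc1 (1.48 and 3.01) passed the filter, Ptprc, Adgre1 and Itgam had at most 4, 2 and 1 counts, and Aif1 and Tyrobp had 0. Adipocyte markers (4 genes) summed to 2.95 to 5.01 CPM in the control, 1.38 to 1.95 CPM in the A1 and 1.32 to 2.32 CPM in the A1-OVA samples, and 5 endothelial markers stayed at or below 0.916 CPM. The part of other cell types in these results was not tested, and in such bulk RNA fewer cells of a type and less RNA per cell cannot be told apart.

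With A1, the galectins and the TFEB regulators split by direction. Lgals1, Tfe3 and Mitf rose, while Lgals8, Lgals9, Mcoln1 and Flcn fell, and Lgals3 and Tfeb were not called. Thus 7 of the 9 genes were called, against 62.7% of all tested genes. By direction, 3 rose against 31.7% of all tested genes, and 4 fell against 31.1%. The CPM of the A1 and control samples did not overlap for 6 of the 9 genes and for 54.4% of all tested genes. The median log2 fold change of the 9 genes was -0.15, that of all tested genes -0.00. The shares of the 9 genes thus lay near the background.

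With A1-OVA, compared with the same control samples, 7 of the 9 genes were called, against 57.6% of all tested genes. Lgals1, Lgals3, Tfe3 and Mitf rose (29.7% of all tested genes rose), and Lgals8, Lgals9 and Flcn fell (27.9% fell). The samples did not overlap for 5 of the 9, and for 49.4% of all tested genes. The median was 0.02 for the 9 genes and 0.00 for all tested genes.

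Between A1-OVA and A1 themselves, Lgals3 and Mcoln1 were higher with A1-OVA and no member was lower. These are 2 of the 9 genes called, against 12.9% of all tested genes, of which 6.05% were higher and 6.81% lower. The samples of these groups did not overlap for Lgals3 alone among the 9, and for 18.1% of all tested genes. The medians were 0.08 for the 9 genes and 0.01 for all tested genes. The 3 comparisons share samples in pairs and are not independent of each other.

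**Figure D1:**
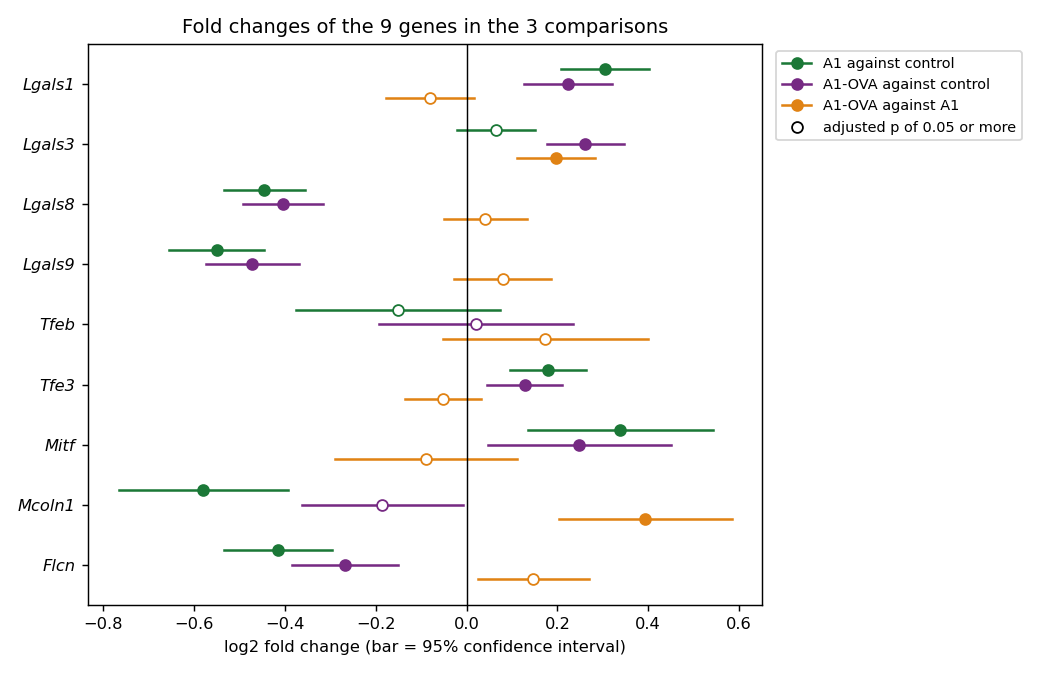
Log2 fold change (x axis) of each of the 9 genes (y axis) with A1 against control, A1-OVA against control and A1-OVA against A1. Bars are 95% confidence intervals from edgeR's quasi-likelihood fit, and open circles have an adjusted p-value of 0.05 or more. Lgals8 and Lgals9 lie to the left of 0 in both comparisons with the control, Lgals1, Tfe3 and Mitf to the right, and Mcoln1 moves from -0.58 with A1 to -0.19 with A1-OVA.

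Per length of transcript, the 9 genes spanned more than 3 orders of magnitude in the control. Levels were set against each other as TPM, a transcript level scaled to the same total in each sample, with the merged exons of a gene as its length, or its longest transcript as the alternative. Lgals1 had the highest level of the 9, at 7017 ± 466 TPM (SD, n = 4), followed by Lgals3 at 336 ± 14.99, Lgals9 at 142 ± 5.67 and Lgals8 at 101.7 ± 3.16. Flcn at 43.1 ± 1.87, Tfe3 at 29.03 ± 0.734 and Mcoln1 at 18.6 ± 0.983 came next, and Mitf at 5.08 ± 0.608 and Tfeb at 4.68 ± 0.424 were lowest. The ranges of Mitf and Tfeb overlapped in the control, and no other neighbours in this order did. With the longest transcript as the length, Mcoln1 reached 36.8 TPM and lay above Tfe3 at 32.03, and Tfeb reached 8.53 and lay above Mitf at 4.86. The order of these 2 pairs therefore depends on the length used. With A1 and the merged exons, Tfe3 at 30.6 ± 1.17 and Flcn at 30.1 ± 1.30 TPM overlapped, while Mitf at 5.99 ± 0.515 and Tfeb at 3.92 ± 0.235 no longer did. With A1-OVA, Flcn at 34.0 ± 3.14 and Tfe3 at 30.1 ± 0.687 TPM overlapped as well. The order of Lgals1, Lgals3, Lgals9 and Lgals8 was the same in all 3 groups, at 8065, 327, 90.1 and 69.4 TPM with A1 and 7774, 382, 97.1 and 72.9 TPM with A1-OVA.

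**Figure D2:**
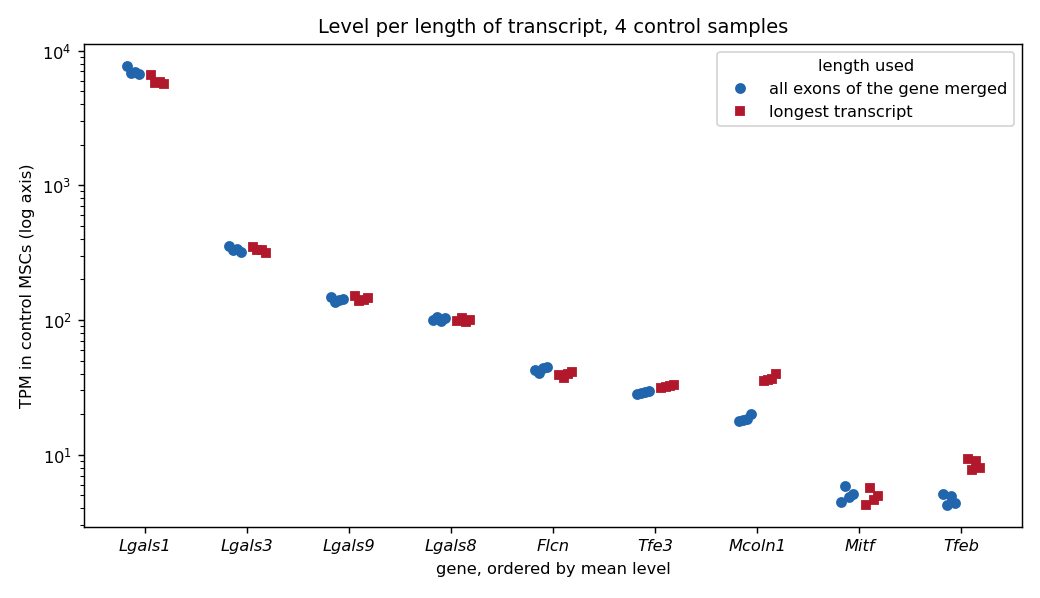
Level of the 9 genes in the 4 control samples, in TPM on a log axis, with the merged exons (circles) or the longest transcript (squares) as the length. Each symbol is 1 sample. Lgals1 lies near 7017 TPM and Mitf and Tfeb near 5, and the squares of Mcoln1 and Tfeb sit above their circles.

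Lgals1 encodes galectin-1, a small secreted and cytosolic galectin abundant in MSCs (chromosome 15, 78926725 to 78930465, + strand). Its level was 1780.1, 1544, 1572 and 1505 CPM in control replicates 1 to 4. It was 2039.7, 1950.0, 1996 and 1922 CPM with A1, and 1962, 1874, 1775 and 1863 CPM with A1-OVA. Every A1 sample lay above every control sample, and the lowest A1-OVA sample fell just under the highest control sample. The log2 fold change with A1 was 0.31 (SE 0.05, adjusted p = 8e-06, edgeR's quasi-likelihood test), a rise of 23.6%. With A1-OVA it was 0.22 (SE 0.05, adjusted p = 0.000319), and the difference between the treatments was -0.08 (95% interval -0.18 to 0.02). Lgals1 held 92.4% of the summed TPM of the 4 galectins in the control, 94.3% with A1 and 93.4% with A1-OVA.

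Lgals3 encodes galectin-3, which gathers on torn endosomes and lysosomes with the repair machinery (chromosome 14, 47367751 to 47386160, + strand). Its level was 169, 157, 157 and 148 CPM in the control, 172, 164, 161 and 163 CPM with A1, and 186, 191, 183 and 196 CPM with A1-OVA. The control and A1 samples overlapped, and all 4 A1-OVA samples lay above the other 8. The change with A1 was 0.06 (SE 0.04, 95% interval -0.02 to 0.15, adjusted p = 0.183, edgeR's quasi-likelihood test). It depended on control replicate 1, without which it was 0.10 (adjusted p = 0.0321, edgeR), and its sign turned when total counts replaced TMM scaling (-0.02). With A1-OVA it was 0.26 against the control (adjusted p = 1.22e-05, edgeR) and 0.20 against A1 (SE 0.04, 95% interval 0.11 to 0.28, adjusted p = 0.00294, edgeR). The latter change was larger in size than that of 80.9% of all tested genes.

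Lgals8 encodes galectin-8, which draws autophagy receptors to damaged vesicles (chromosome 13, 12439415 to 12464944, - strand). Its level was 94.4, 98.2, 91.0 and 94.99 CPM in the control, 69.0, 67.6, 73.9 and 67.6 CPM with A1, and 68.1, 71.2, 72.2 and 74.4 CPM with A1-OVA. All 8 treated samples lay below all 4 control samples. The fall was -0.44 with A1 (SE 0.04, adjusted p = 1.07e-08, edgeR's quasi-likelihood test) and -0.40 with A1-OVA (SE 0.04, adjusted p = 4.55e-08), that is, to 0.735 and 0.756 of the control level. Between the treatments the difference was 0.04 (95% interval -0.05 to 0.13). The gene shares 155 exon bases with Heatr1 on the opposite strand, and the counting used the strand.

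Lgals9 encodes galectin-9, a galectin with a pair of sugar-binding domains that has been described on damaged lysosomes (chromosome 11, 78962974 to 78984946, - strand). Its level was 81.8, 73.5, 74.9 and 76.1 CPM in the control, 50.4, 50.9, 54.0 and 53.9 CPM with A1, and 51.3, 56.5, 54.1 and 58.8 CPM with A1-OVA. Again all treated samples lay below all control samples. The log2 fold change was -0.55 with A1 (SE 0.05, adjusted p = 3.89e-09, edgeR's quasi-likelihood test), the larger of the 2 falls among the 4 galectins, and -0.47 with A1-OVA (SE 0.05, adjusted p = 3.85e-08). The treatments differed by 0.08 (95% interval -0.03 to 0.19).

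Tfeb encodes the factor the group is named for (chromosome 17, 47737030 to 47792419, + strand). It had 76 to 120 counts per sample, the lowest of the 9 genes. Its level was 7.43, 6.09, 7.05 and 6.21 CPM in the control, 5.50, 6.18, 6.11 and 6.32 CPM with A1, and 6.81, 5.89, 7.13 and 7.33 CPM with A1-OVA. The 3 groups overlapped. The changes were -0.15 with A1 (95% interval -0.38 to 0.07, adjusted p = 0.229, edgeR's quasi-likelihood test), 0.02 with A1-OVA (-0.19 to 0.23) and 0.17 between the treatments (-0.05 to 0.40). None of these changes was called, and each interval held both falls and rises, so that no direction is given for Tfeb.

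Tfe3 encodes the relative of TFEB with the most RNA in these cells (chromosome X, 7762560 to 7775202, + strand). Its level was 66.9, 67.4, 67.8 and 69.3 CPM in the control, 75.6, 81.2, 76.3 and 74.3 CPM with A1, and 72.8, 75.3, 74.9 and 73.5 CPM with A1-OVA. Every treated sample lay above every control sample. The rise was 0.18 with A1 (SE 0.04, adjusted p = 0.000586, edgeR's quasi-likelihood test) and 0.13 with A1-OVA (SE 0.04, adjusted p = 0.00919). With total counts in place of TMM scaling the rises were 0.10 (adjusted p = 0.0376, edgeR) and 0.06 (adjusted p = 0.190, edgeR), so that the second was no longer called. On the TPM scale the control samples (28.2 to 29.95) and the A1 samples (29.8 to 32.3) overlapped. Of the summed TPM of Tfeb, Tfe3 and Mitf, Tfe3 held 74.8% in the control, 75.5% with A1 and 74.6% with A1-OVA.

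Mitf, best known from pigment cells and osteoclasts, had 114 to 156 counts per sample (chromosome 6, 97807052 to 98021349, + strand). Its level was 7.06, 9.22, 7.55 and 7.96 CPM in the control, 9.76, 11.1, 10.5 and 8.93 CPM with A1, and 9.78, 9.69, 9.64 and 8.75 CPM with A1-OVA. Control replicate 2 lay above the lowest sample of each treatment. The log2 fold change was 0.34 with A1 (SE 0.10, adjusted p = 0.00505, edgeR's quasi-likelihood test) and 0.25 with A1-OVA (SE 0.10, adjusted p = 0.0336). The A1-OVA call was lost with DESeq2 (adjusted p = 0.0718), with upper-quartile scaling (adjusted p = 0.0509, edgeR) and with total counts (0.18, adjusted p = 0.108, edgeR). It was also lost without A1-OVA replicate 1, 2 or 3 or control replicate 1, 3 or 4, where edgeR's adjusted p was 0.0665, 0.0699, 0.0640, 0.106, 0.0839 and 0.0582. The fourth factor of this family, Tfec, had at most 1 count in a sample, which was not detectable at this depth.

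**Figure D3:**
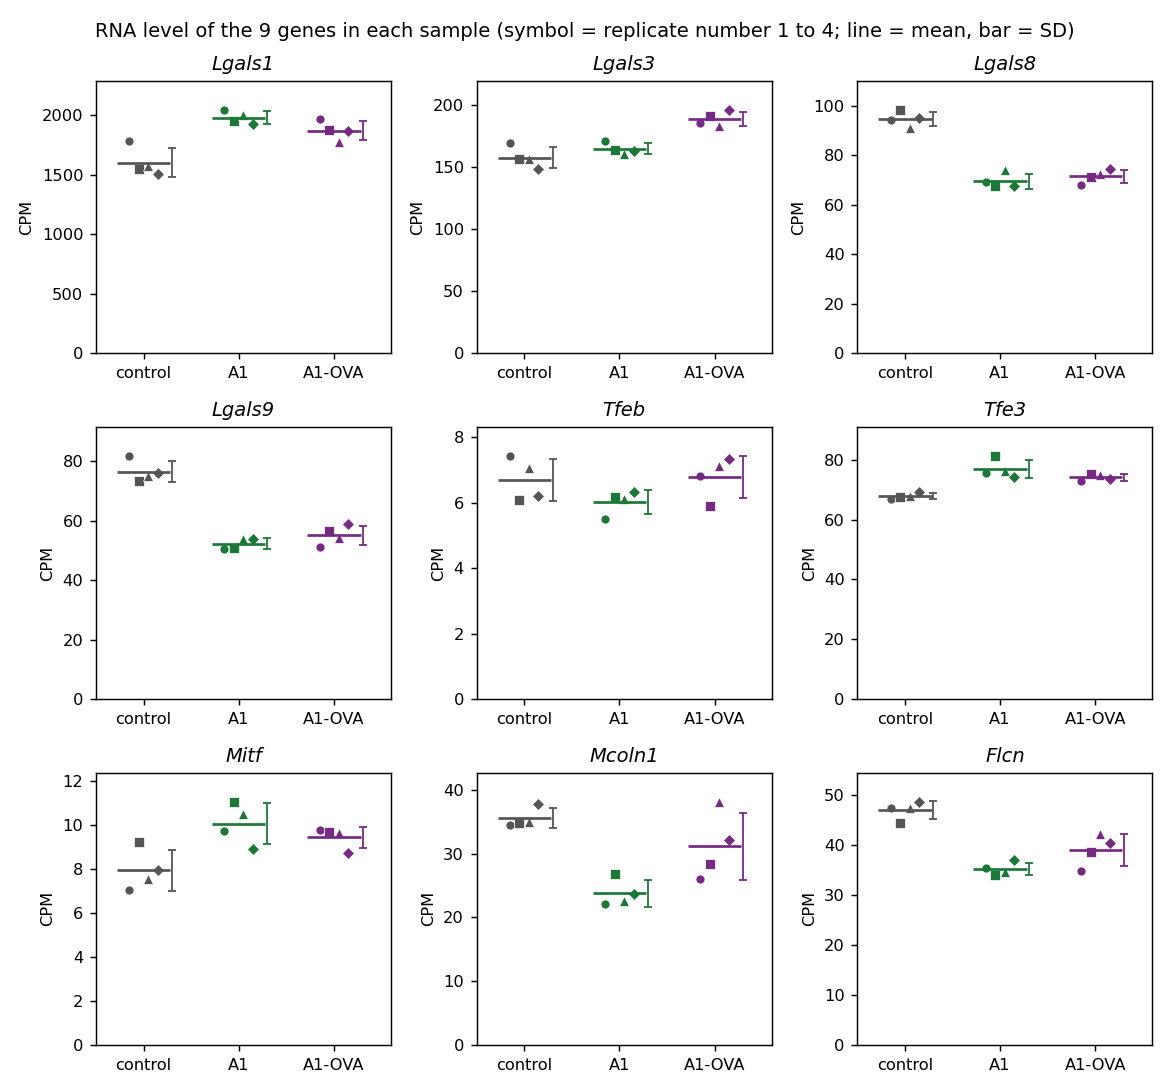
RNA level of the 9 genes in CPM (y axis, from 0) in the 4 control, 4 A1 and 4 A1-OVA samples. Symbols give the replicate number, the horizontal line is the group mean and the bar its SD. Lgals8 and Lgals9 show both treatments below the control, Lgals3 shows A1-OVA above both other groups, and Mcoln1 shows a wide spread with A1-OVA, from 26.1 to 38.2 CPM.

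Mcoln1 encodes TRPML1, the main calcium release channel of the lysosome (chromosome 8, 3500457 to 3515232, + strand). Its level was 34.5, 34.8, 35.0 and 37.9 CPM in the control, 22.1, 26.9, 22.6 and 23.7 CPM with A1, and 26.1, 28.4, 38.2 and 32.1 CPM with A1-OVA. The A1 samples lay below all control samples, whereas the A1-OVA samples reached from the A1 range into the control range. Replicates 1 and 2 of A1-OVA (26.1 and 28.4 CPM) lay below replicates 3 and 4 (38.2 and 32.1 CPM). Over the tested genes, replicates 1 and 2 were also closer to each other than to the rest of the group, as were replicates 3 and 4. The reason for this split was not tested. With A1, Mcoln1 fell by 0.58 on the log2 scale (SE 0.09, adjusted p = 9.12e-06, edgeR's quasi-likelihood test), to 0.669 of the control level. A1-OVA lay above A1 by 0.39 (SE 0.09, 95% interval 0.20 to 0.58, adjusted p = 0.00672, edgeR), a change larger in size than that of 94.9% of all tested genes. Against the control, A1-OVA differed by -0.19 (95% interval -0.36 to -0.01, adjusted p = 0.0672, edgeR). The size and the call of this last difference depended on single samples. Without A1-OVA replicate 3 it was -0.29 and called (adjusted p = 0.00179, edgeR), and without A1-OVA replicate 1 it was -0.11 and not called (adjusted p = 0.244, edgeR). It was also called with upper-quartile scaling (adjusted p = 0.0441, edgeR), with total counts (-0.25, adjusted p = 0.0171, edgeR), without the filter on low counts (adjusted p = 0.0196, edgeR) and with the replicate number as a block (-0.19, adjusted p = 0.0437, edgeR), and not with DESeq2 (adjusted p = 0.0560). The relatives Mcoln2 and Mcoln3 had at most 1 count in a sample.

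Flcn encodes folliculin, the partner of the Rag GTPases (chromosome 11, 59791408 to 59810016, - strand). Its level was 47.5, 44.4, 47.5 and 48.7 CPM in the control, 35.4, 34.1, 34.7 and 37.0 CPM with A1, and 34.9, 38.6, 42.3 and 40.4 CPM with A1-OVA. All treated samples lay below all control samples, and 3 of the 4 A1-OVA samples lay above all A1 samples. As for Mcoln1, A1-OVA replicates 1 and 2 lay below replicates 3 and 4. The fall was -0.41 with A1 (SE 0.06, adjusted p = 1.95e-06, edgeR's quasi-likelihood test) and -0.27 with A1-OVA (SE 0.06, adjusted p = 0.000306). The treatments differed by 0.15 (95% interval 0.03 to 0.27, adjusted p = 0.104, edgeR), and without A1-OVA replicate 1 by 0.20 (adjusted p = 0.0248, edgeR).

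The genes around these 9 were described from 6 lists chosen by function, with earlier results of these data known. The lists overlap each other and contain the 9 genes. Over all tested genes, 31.7% rose and 31.1% fell with A1, 29.7% rose and 27.9% fell with A1-OVA, and 6.05% were higher and 6.81% lower with A1-OVA than with A1. The galectin list held 8 tested genes, among them the galectin-related Lgalsl (-0.09, adjusted p = 0.0826, edgeR) and Lgals3bp, which encodes a protein that binds galectins and is not one itself. Of these 8 genes 1 rose and 5 fell with A1, with a median of -0.47, and Lgals3bp was 1 of the 5 (-0.50, adjusted p = 9.52e-10, edgeR). Beyond the 9 genes, the largest falls were those of Lgals4 (-1.83, SE 0.34, adjusted p = 7.2e-05, edgeR), a galectin of gut epithelium with 1 to 22 counts per sample, and Lgals2 (-1.06, SE 0.20, adjusted p = 9.37e-05), with 14 to 51 counts. Lgals12 had at most 7 counts, and Lgals7 and Grifin were at 0 in all 12 samples. Such a result allows an expected count of up to 3 over the 12 samples together. With A1-OVA, 2 of the 8 rose and 5 fell (median -0.40). Of the 3 tested factors of the TFEB family, 2 rose with A1 and 0 fell (median 0.18).

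Among genes that control the TFEB family, more fell than rose with A1. The list held genes for Rag GTPases, their Ragulator anchor, the folliculin complex, mTORC1 and calcineurin, the amino acid sensor gene Slc38a9 and the kinase genes Map4k3 and Gsk3b. Of its 19 tested genes, 1 rose and 11 fell (median -0.20), beside 31.7% higher and 31.1% lower over all tested genes. Map4k3 (-0.20, adjusted p = 0.000346, edgeR) and Gsk3b (-0.24, adjusted p = 6.13e-05) were among the falls. The rise was that of Rptor, the substrate-binding subunit of mTORC1 (0.26, SE 0.05, adjusted p = 0.000216, edgeR). The largest fall was that of Ppp3ca, a catalytic subunit of calcineurin, from 384 ± 16 to 172 ± 9.6 CPM (-1.16, SE 0.05, adjusted p = 5.56e-15, edgeR). Another catalytic subunit gene, Ppp3cb, changed less, from 169 to 142 CPM (-0.26, adjusted p = 1.04e-05, edgeR). The regulatory subunit gene Ppp3r1 was not called (0.03, adjusted p = 0.610, edgeR). With A1-OVA Ppp3ca was also at 172 CPM. Rragc, a Rag GTPase on which folliculin acts, fell by 0.36 (SE 0.04, adjusted p = 6.95e-08, edgeR), and Rragb, a partner of it, was at 0 in all samples. Another Rag GTPase gene, Rraga, was present at 74.5 CPM in the control and 79.0 CPM with A1. It was not called (0.08, adjusted p = 0.118, edgeR). With A1-OVA 1 of the 19 rose and 8 fell (median -0.12). Between the treatments Rragc alone was called, 0.16 higher with A1-OVA (adjusted p = 0.0126, edgeR).

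Lysosomal ion channels and the enzymes of PI(3,5)P2, the lipid that opens the Mcoln1 channel, followed a like direction. With A1 0 of the 10 tested genes rose and 9 fell, with a median of -0.35, beside 31.7% higher and 31.1% lower over all tested genes. Besides Mcoln1, the largest falls were those of Fig4, a PI(3,5)P2 phosphatase (-0.58, SE 0.05, adjusted p = 4.37e-10, edgeR), and Tmem175, a lysosomal potassium and proton channel (-0.53, SE 0.11, adjusted p = 0.000161). With A1-OVA 1 rose and 5 fell against the control (median -0.15). Against A1, 5 were higher with A1-OVA and 0 lower (median 0.19), beside 6.05% higher and 6.81% lower over all tested genes. The 5 were Mcoln1, the chloride and proton exchanger Clcn7 (0.32), its subunit Ostm1 (0.23), the ATP-gated channel P2rx4 (0.32) and the scaffold Vac14 (0.23).

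Of 26 tested genes for recognition and repair of damaged lysosomes, 9 rose and 9 fell with A1 (median -0.01), which lay near the 31.7% higher and 31.1% lower over all tested genes. The larger rises were those of Anxa1, an annexin that binds membranes in the presence of calcium (0.92, SE 0.04, adjusted p = 4.94e-14, edgeR, from 1056 to 2001 CPM), and Trim16, a ubiquitin ligase that works with galectin-3 (0.36, SE 0.06, adjusted p = 1.01e-05). Pdcd6ip and Pdcd6, which bring the ESCRT machinery to torn membranes, rose by 0.36 and 0.24 (adjusted p = 1.47e-08 and 1.64e-05, edgeR). The larger falls were those of Fbxo2, with 5 to 18 counts per sample (-0.78, SE 0.30, adjusted p = 0.0270), and Calcoco1, an autophagy receptor (-0.69, SE 0.07, adjusted p = 9.43e-09). With A1-OVA 11 rose and 7 fell against the control (median 0.03), and Anxa1 and Trim16 rose by 0.90 and 0.36. Between the treatments 3 genes were higher with A1-OVA, namely Lgals3, Tecpr1 (0.24) and Vps13c (0.44), and without A1 replicate 1 or A1 replicate 3 this count was 1.

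Known CLEAR targets, the lysosomal and autophagy genes near which TFEB binds, were lower with A1. Of 35 tested targets 28 fell and 2 rose, with a median of -0.30, beside 31.1% of all tested genes lower, 31.7% higher and a median of -0.00. Gla, the lysosomal alpha-galactosidase, fell from 38.01 ± 1.46 to 21.6 ± 1.11 CPM (-0.81, SE 0.06, adjusted p = 1.01e-10, edgeR). Ctsf, a cathepsin with 8 to 37 counts per sample, changed by -0.88 (SE 0.27, adjusted p = 0.00713, edgeR). The 2 rises were those of Wipi1, an autophagy protein (0.16, SE 0.04, adjusted p = 0.00222, edgeR), and Gusb, the lysosomal beta-glucuronidase (0.11, SE 0.04, adjusted p = 0.0188). Neither was called with total counts. With A1-OVA 17 targets fell and 1 rose against the control (median -0.12), beside 27.9% lower and 29.7% higher over all tested genes.

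Against A1, 15 of the 35 targets were higher with A1-OVA and 1 was lower, with a median of 0.14, beside 6.05% higher and a median of 0.01 over all tested genes. The larger differences included Neu1, the lysosomal sialidase (0.48, adjusted p = 0.000173, edgeR), with means of 29.6, 21.6 and 30.1 CPM in control, A1 and A1-OVA. Gpnmb, a glycoprotein of lysosomes and melanosomes, had means of 120, 70.3 and 90.6 CPM and was 0.37 higher with A1-OVA than with A1 (adjusted p = 5.46e-06, edgeR). Wipi1 was the target that was lower (-0.24, adjusted p = 0.000541, edgeR). Neu1, Gpnmb, Pdcd6ip, Pdcd6, Lgalsl, Lgals3bp, Map4k3, Gsk3b, Ppp3cb, Ppp3r1, Rraga and the genes named between the treatments were chosen after their values were seen.

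**Figure D4:**
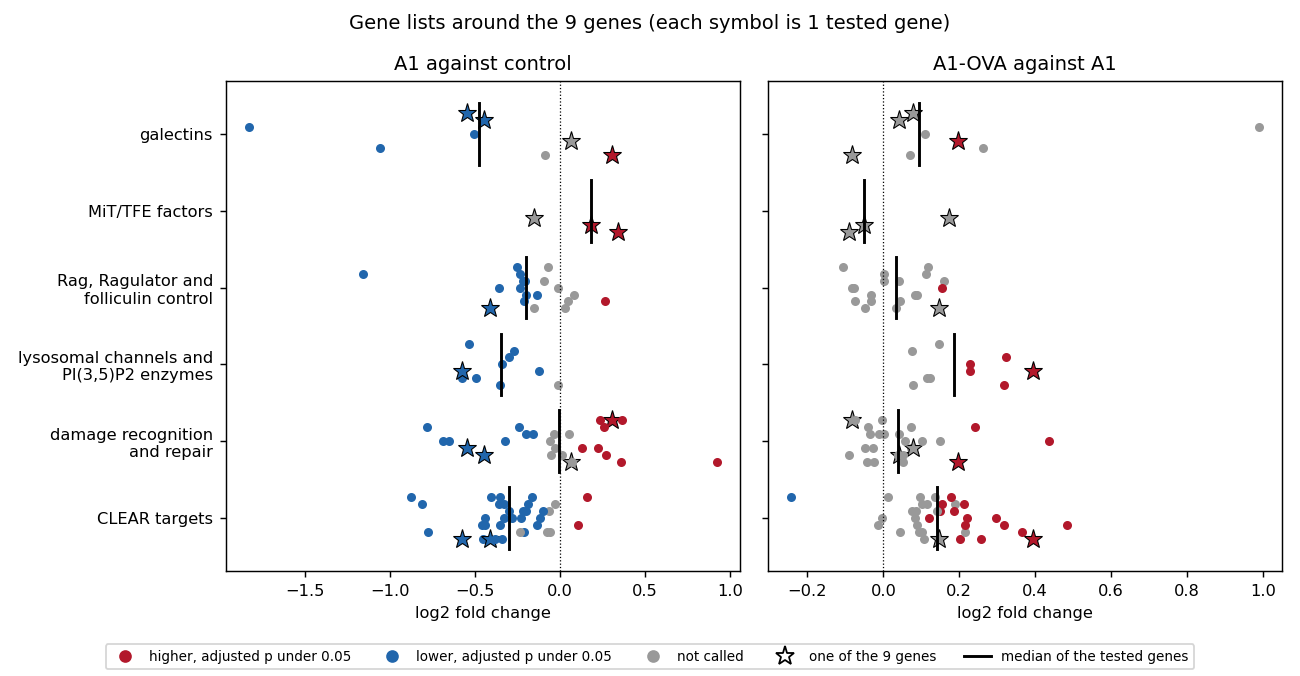
Log2 fold change (x axis) of each tested gene of the 6 lists, with A1 against control (left) and A1-OVA against A1 (right). Colors give the call at an adjusted p-value of 0.05, stars are the 9 genes and vertical lines the list medians. On the left the CLEAR targets lie mostly below 0, with 28 of 35 called lower. On the right their median is 0.14, with 15 called higher, 1 lower and 19 not called.

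Among the CLEAR targets with a listed promoter, falls were found with and without the letters TCACGTG in the window. With A1, 12 of the 14 tested targets with a match fell (median -0.32), and 12 of the 15 without a match fell (median -0.33). Over all 8954 tested genes with a window, 30.8% were lower and 31.8% higher with A1. Of the 1065 genes with the core CACGTG, 31.9% were lower and 34.6% higher (median 0.02), which lay near these shares. Of the 642 genes with TCACGTG, 38.8% were lower and 26.9% higher, and of the 208 with TCACGTGA 42.3% were lower and 23.6% higher. With A1-OVA against A1, 7.32% of the genes with CACGTG and 9.03% of those with TCACGTG were higher, beside 5.93% of all genes with a window. The 642 and the 208 genes are among the 1065. With A1, those of the 1065 without TCACGTG therefore held a smaller share of falls and a larger share of rises than all 1065. A lean to lower values with A1 was thus seen with the longer forms only. The shares over all genes with the core mix these with genes that lean the other way. These shares are descriptions without a test.

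The genes whose pattern over the 12 samples was most like that of a member were named by Pearson's r of log2 CPM, as a description. The 12 points are 3 groups of 4 that share a treatment. For Lgals8 Nipsnap2 (0.985) was among them, for Lgals9 these were Zfp637 (0.987) and Mmab (0.986), and for Lgals1 Rpl4 (0.987) and Tmed3 (0.987). For Flcn they were Zmym3 (0.979) and Slc38a7 (0.974), and for Mcoln1 Ccdc28b (0.973) and Ap3d1 (0.972). For Tfe3 they were Slc35d1 (0.971) and Mlkl (0.951), and for Mitf Ptpn7 (0.969) and Cnot7 (0.943). Within the 9 genes Lgals8 and Lgals9 were most alike (0.969), then Lgals9 and Flcn (0.925).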

How the data were processed

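RNA-seq counts of 12 samples in 3 groups of 4 were used. The authors prepared strand-specific libraries from polyA RNA, aligned the reads to GRCm38 and counted them per gene. The submitters' processing notes name bcl2fastq 2.20, STAR 2.7 and featureCounts 2.0. The deposited values are raw counts without normalization. The study's restriction to protein-coding genes and its removal of low counts are not in the table and were repeated here.

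Symbols, gene types, lengths and coordinates came from GENCODE M21 (GRCm38), an earlier release than the one counted on, which held 99.53% of the identifiers. Of 21974 protein-coding genes, 11314 passed edgeR's filterByExpr. After TMM scaling, a single quasi-likelihood model of edgeR 4.0.16 (R 4.3.3) held all 12 samples and 3 groups, and p-values were adjusted by Benjamini-Hochberg. Log2 CPM used a prior count of 2. TPM used merged exon lengths. Promoter windows came from RefSeq (GRCm38.p6) and were searched on both strands.

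Named genes are the 9 members, in each functional list the 2 called genes outside the members that rose most and the 2 that fell most with A1, and the 2 genes most alike to each called member. A gene that this rule selects is not reported here. The members and lists were chosen with earlier results of these data known. Alternatives were DESeq2 1.42.0, upper-quartile scaling, no filter, a minimum of 10 counts per sample, inclusion of non-coding genes, only the groups compared, the replicate number as a block, the longest transcript as length and each sample left out. Total counts without TMM factors were added after seeing the data. Replicate pairs differed by 1.92 to 6.87 times the counting variance, so that none was a copy. Within A1-OVA, replicates 1 and 2 (2.42) and replicates 3 and 4 (2.56) were closer than the other pairs (5.00 to 5.82). The reason was not tested.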

Additional observations from a re-analysis of the deposited data

Results flagged for a closer look

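In each of the 27 sets of 4 samples (9 genes in 3 groups), the gap of the outermost sample to its neighbour was set against Dixon's 95% critical value for 4 samples. Chance alone sets about 1 in 20 such groups apart, and 2 were. Mitf in A1-OVA replicate 4, at 8.75 CPM, lay below the other samples of its group, which had 9.64 to 9.78 CPM. Mcoln1 in control replicate 4, at 37.9 CPM, lay above the other control samples, which had 34.5 to 35.0 CPM. Mcoln1 was called with A1 in each fit that left out a sample.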

How the results depend on the processing

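No called log2 fold change of the 9 genes changed sign. Over the 3 comparisons, 523 of 540 alternative values stayed on their side of the threshold, 10 lost a call and 7 gained one. With total counts in place of TMM factors, the number of members higher with A1-OVA against the control went from 4 to 2, as Tfe3 and Mitf were no longer called. That setting shifted the median of all genes by -0.08 with A1 and -0.07 with A1-OVA, and rises made up 37.4% of all called genes with A1 and 39.0% with A1-OVA, instead of 50.5% and 51.5%. Between the treatments the share was 57.7% instead of 47.1%. The single rise among the channels and the single rise among the CLEAR targets with A1-OVA (Vac14 and Gusb) were not called in most fits, and that of Rptor was lost with total counts. The cause was not tested. What the replicate numbers stand for is not stated. Deviations of same-numbered samples from their group means correlated at -0.13 to 0.16 (mean 0.021 over 12 pairs), and 4 of 12 samples correlated best with their own number. With the replicate block, Mcoln1 was called with A1-OVA against the control (-0.19, adjusted p = 0.0437, edgeR), and it changed no other call of a member. Levels per length moved with the length used for Lgals1 (5970.4 TPM in the control with the longest transcript), Tfeb, Tfe3, Mcoln1 and Flcn. Counts of 76 to 156 limit Tfeb and Mitf.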
